A study of Mus musculus with 8 samples.

Results

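Nes, Vim, Fabp7, Slc1a3, Prom1, Ptprz1, Ptn, Msi1 and Gfap, 9 genes used as markers of radial glia and neural progenitors, were followed by RNA-seq in differentiating mouse embryonic stem cells (mESCs). The members were chosen by name, as the rows of the deposited tables that carry these gene symbols, and each symbol occurred once among the 24849 genes listed. The 8 samples came from the MPI-II mESC line of strain 129S2/SvPas and formed 4 conditions of 2 biological replicates each. They were wild type cells at day 0, Pcgf5-/- cells at day 0, wild type cells at day 6 and Pcgf5-/- cells at day 6. Before differentiation both genotypes grew on fibroblast feeders with serum, leukemia inhibitory factor and 2 kinase inhibitors (2i), and at day 0 they had not yet been moved to N2B27, the serum-free medium in which mESCs adopt a neural fate. PCGF5 is a subunit of a Polycomb repressive complex 1 that places ubiquitin on histone H2A. The mutation was made with TALENs directed at the second exon, followed by selection with puromycin and G418 and picking of single colonies. How many colonies stand behind the Pcgf5-/- samples is not given in the sources used here, so the genotype cannot be told apart from properties of the clone. The labels do not say whether the replicates were separate differentiation cultures, and p-values measure only the spread between these samples.

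Radial glia are the elongated progenitor cells of the embryonic neural tube, which divide to give neurons first and astrocytes later. Progenitors are commonly recognised by a cytoskeleton of nestin and vimentin (Nes, Vim), by the brain fatty acid binding protein (Fabp7), by the glial glutamate transporter GLAST (Slc1a3), by the apical membrane protein prominin 1 (Prom1), and by the RNA-binding protein Musashi 1 (Msi1). Pleiotrophin (Ptn) is a secreted growth factor, and the receptor-type phosphatase encoded by Ptprz1 is one of its receptors. GFAP (Gfap) is the intermediate filament of astrocytes and of some adult neural stem cells. Vimentin is also abundant in fibroblasts and other mesenchymal cells.

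The promoter windows of the members were inspected first. RefSeq windows from 250 bases before to 50 bases after an annotated start site (build GRCm38.p6) were matched by symbol for 8 of the 9 genes, with Msi1 the gene not matched. Both strands were searched for TGGGAA (the core of the site of RBPJ, the Notch effector), ATGCAAAT (the octamer of POU factors), ACAAAG (SOX factors), TTCNNNGAA (STAT factors), TATAAA (the TATA box) and CCAAT (the CCAAT box). A match is a description of the letters only. The 5 windows below show how unlike the starts of these genes are. Nes is the progenitor filament gene whose window held none of the motifs, Vim the gene expressed at both days, Fabp7 the gene that went from near 0 to a high level, Slc1a3 the gene whose values lay higher in Pcgf5-/- cells at day 6, and Gfap the gene that stayed near 0. Capitals mark the matches, written as they occur on the strand of the gene.
Nes (chr3:87970843-87971142, plus strand): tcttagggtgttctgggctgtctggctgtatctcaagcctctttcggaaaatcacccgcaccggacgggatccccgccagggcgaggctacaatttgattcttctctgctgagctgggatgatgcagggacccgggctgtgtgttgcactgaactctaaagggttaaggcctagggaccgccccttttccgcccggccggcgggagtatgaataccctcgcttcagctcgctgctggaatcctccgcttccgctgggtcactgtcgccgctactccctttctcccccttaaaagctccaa
Vim (chr2:13574061-13574360, plus strand): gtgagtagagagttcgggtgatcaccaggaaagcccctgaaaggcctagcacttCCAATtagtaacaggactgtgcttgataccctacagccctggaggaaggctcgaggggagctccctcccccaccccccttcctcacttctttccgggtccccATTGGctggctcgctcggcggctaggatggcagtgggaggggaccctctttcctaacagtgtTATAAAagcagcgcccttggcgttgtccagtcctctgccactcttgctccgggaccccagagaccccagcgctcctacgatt
Fabp7 (chr10:57784673-57784972, plus strand): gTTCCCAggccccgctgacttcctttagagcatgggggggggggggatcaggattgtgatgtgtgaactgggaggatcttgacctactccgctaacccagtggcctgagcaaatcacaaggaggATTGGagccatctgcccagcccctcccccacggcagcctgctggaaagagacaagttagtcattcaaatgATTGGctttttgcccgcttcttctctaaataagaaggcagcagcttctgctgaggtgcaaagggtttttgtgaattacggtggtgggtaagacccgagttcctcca
Slc1a3 (chr15:8710758-8711057, minus strand): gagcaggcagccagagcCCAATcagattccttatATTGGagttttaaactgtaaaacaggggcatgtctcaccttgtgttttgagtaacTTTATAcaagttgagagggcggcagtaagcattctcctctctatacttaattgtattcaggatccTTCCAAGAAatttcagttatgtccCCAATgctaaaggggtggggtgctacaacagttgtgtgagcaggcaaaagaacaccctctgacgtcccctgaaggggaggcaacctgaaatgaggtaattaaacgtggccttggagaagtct
Gfap (chr11:102897151-102897450, minus strand): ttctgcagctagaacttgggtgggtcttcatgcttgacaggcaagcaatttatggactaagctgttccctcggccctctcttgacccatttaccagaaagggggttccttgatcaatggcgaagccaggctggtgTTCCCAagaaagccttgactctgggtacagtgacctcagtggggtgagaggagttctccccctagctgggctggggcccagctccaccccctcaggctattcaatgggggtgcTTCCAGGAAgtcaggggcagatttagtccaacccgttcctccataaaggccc

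Counted from the start site, the Vim window held a TATA box at -32 and CCAAT boxes at -196 and -94. The Fabp7 window held CCAAT boxes at -126 and -56 and an RBPJ core at -249. In the Slc1a3 window there were 3 CCAAT boxes, at -233, -216 and -72, a STAT match at -96 and, at -161, the letters of a TATA box on the opposite strand. The Gfap window held a STAT match at -2 and an RBPJ core at -115. Among all 32851 windows the RBPJ core occurred in 25.6%, the STAT letters in 8.30%, the TATA box in 13.6%, the CCAAT box in 37.4%, the SOX letters in 18.7% and the octamer in 1.74%. None of the windows of the 8 matched genes held the SOX letters or the octamer, which says only that these letters are not in these stretches. Ptn held an RBPJ core at -84 that overlapped a CCAAT box at -81. CpG dinucleotides, the target of DNA methylation, ranged widely, with 29 in the Ptprz1 window, 18 in Nes, 11 in Vim, 6 in Fabp7 and in Ptn, and 3 in Slc1a3 and in Gfap, against a median of 7 over all windows. Prom1 had 2 windows, with 4 and 10 CpG, and the second held an RBPJ core and a CCAAT box.

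Abundance was given as FPKM, the fragments of a gene divided by its exon length and by the library size, which allows genes to be compared per unit of length. FPKM values carry no counts, and the relative depth of the libraries, read from the steps between low values, lay between 0.993 and 1.28 times that of wild type day 0 replicate 1. In the mm9 coordinates of the files the genes lie apart, with Nes on chromosome 3 from 87775015 to 87784373, Vim on chromosome 2 from 13495938 to 13504453, Fabp7 on chromosome 10 from 57504729 to 57508256, Slc1a3 on chromosome 15 from 8584124 to 8660807, Prom1 on chromosome 5 from 44384861 to 44492975. The others were Ptprz1 on chromosome 6 from 22825502 to 23002916, Ptn on chromosome 6 from 36665663 to 36761361, Msi1 on chromosome 5 from 115879694 to 115904211 and Gfap on chromosome 11 from 102748650 to 102758514. All 9 are annotated as protein coding in that build, and each FPKM refers to the exons of the whole gene. Differences were tested with limma on log2(FPKM + 1) for the 13214 genes whose mean FPKM exceeded 1 in some condition, two-sided and with Benjamini-Hochberg adjustment over all of these genes. Fold changes on this scale are smaller than the ratios of FPKM for weakly expressed genes. Of the 9 members 8 passed the minimum and Gfap did not. Fabp7, Prom1 and Ptprz1 passed it only through day 6, so that their rise with time is partly built into the filter. The targeted gene, Pcgf5, had 5.18 and 3.63 FPKM in wild type against 1.28 and 1.84 FPKM in Pcgf5-/- cells before differentiation. The day 6 values were 9.16 and 5.06 FPKM against 0.669 and 0.457 FPKM, so the Pcgf5-/- samples lay below wild type at both days. The difference passed an adjusted p of 0.05 at day 6 (log2 fold change -2.33, limma adjusted p = 0.00421) and did not at day 0 (-1.07, limma adjusted p = 0.105). Across the 13 pluripotency markers the summed FPKM was 2490 to 2720 in the 4 day 0 samples, as mESCs hold in quantity. At day 6 this sum was 431 and 186 in wild type and 1233 and 1116 in Pcgf5-/- cells. Because these are bulk samples, fewer progenitor cells and less RNA per progenitor cell cannot be told apart in any result on the 9 genes.

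**Figure D1:**
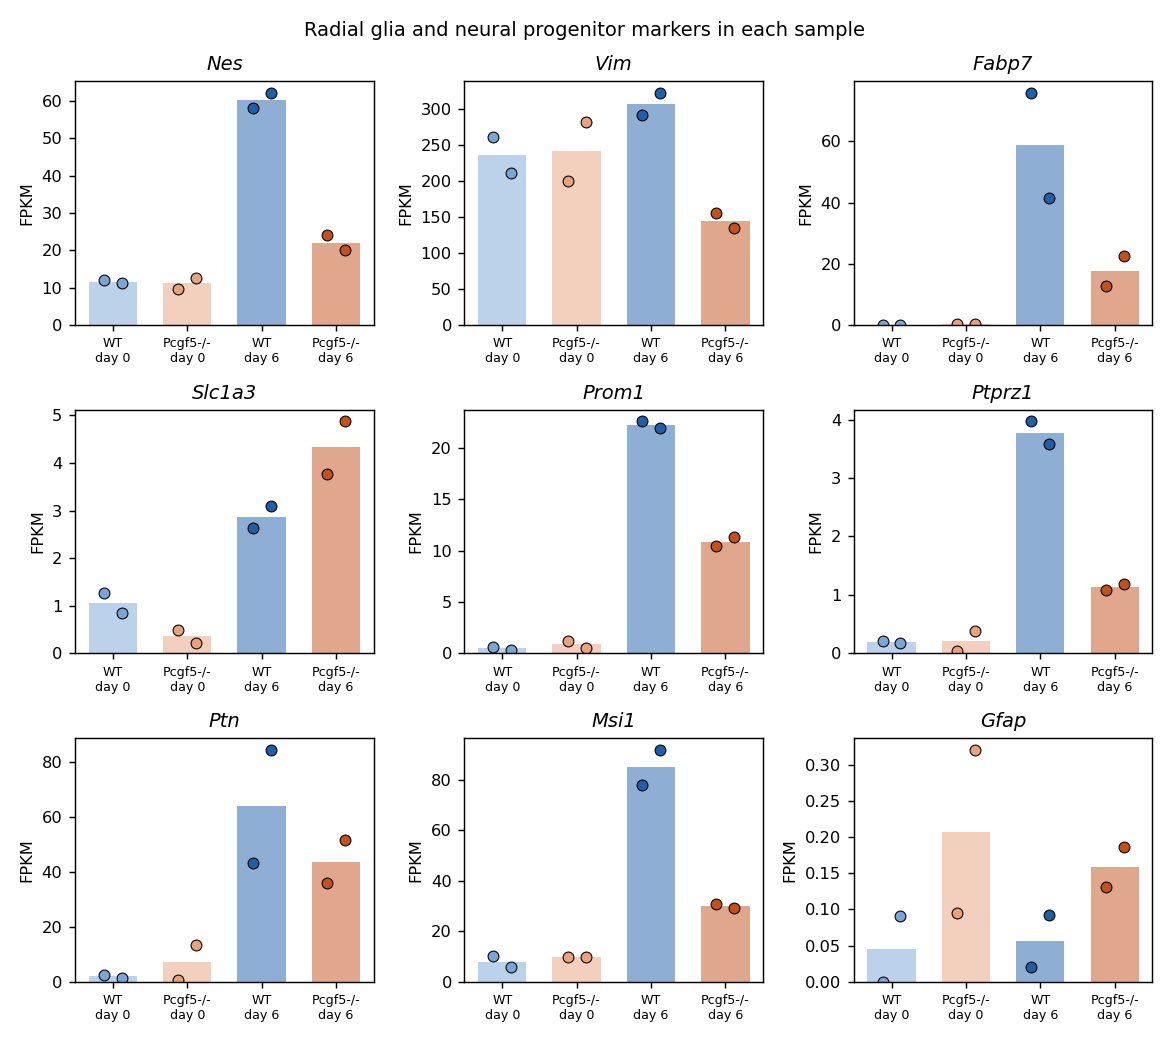
FPKM (vertical axes, each from 0) of the 9 markers in every sample; points are the 2 samples of a condition and bars their mean. Nes, Fabp7, Prom1, Ptprz1 and Msi1 are highest in wild type at day 6 and lower in Pcgf5-/- cells, Vim is high at both days and lowest in Pcgf5-/- cells at day 6, while Slc1a3 is highest in Pcgf5-/- cells at day 6, Ptn overlaps between genotypes and Gfap stays under 0.33 FPKM.

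In undifferentiated cells most of the markers were scarce and the genotypes were not separated by the test. Of the 8 members tested, 0 had an adjusted p under 0.05 between Pcgf5-/- and wild type at day 0 by limma, and 1, Slc1a3, had an unadjusted p under 0.05. Over all genes tested, 0.333% were called, meaning past this threshold, at day 0, so a count of 0 among 8 is close to that background. Vim stood apart from the rest by its abundance at day 0, with 261 and 211 FPKM in wild type, against 201 and 282 FPKM in Pcgf5-/- cells. Nes had 11.9 and 11.3 FPKM in wild type, against 9.62 and 12.6 FPKM in Pcgf5-/- cells. Msi1 had 10.1 and 5.89 FPKM in wild type, against 9.77 and 9.79 FPKM in Pcgf5-/- cells. For these 3 genes the genotypes overlapped. The 95% intervals of the log2 fold change reached from -0.40 to 0.44 for Vim and from -0.44 to 0.31 for Nes, which leaves room for modest differences in either direction.

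Fabp7, Ptprz1, Prom1 and Slc1a3 had low values in mESCs. Fabp7 was listed at 0 in both wild type samples and at 0.103 and 0.109 FPKM in the Pcgf5-/- samples. Ptprz1 lay between 0.0455 and 0.380 FPKM, and Prom1 between 0.299 and 1.23 FPKM. Both genes overlapped between the genotypes. Slc1a3 had 1.27 and 0.842 FPKM in wild type, against 0.490 and 0.217 FPKM in Pcgf5-/- cells. Each Pcgf5-/- sample of this glutamate transporter gene was under each wild type sample. How many of all genes showed this arrangement at day 0 was not counted. The log2 fold change of Slc1a3 was -0.60, with a standard error of 0.21 and a limma adjusted p of 0.195. With a pseudocount of 0.01 in place of 1, Fabp7 passed the threshold at day 0 (log2 fold change 3.53, limma adjusted p = 0.0420), a value that rests on the difference between a listing at 0 and about 0.1 FPKM.

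Ptn was the member in which 1 library decided the value at day 0. The growth factor had 2.36 and 1.50 FPKM in wild type, 0.747 FPKM in Pcgf5-/- replicate 1 and 13.5 FPKM in Pcgf5-/- replicate 2. Its log2 fold change of 0.80 (standard error 0.82) became -0.73 without Pcgf5-/- day 0 replicate 2. The same library carried the most RNA of fibroblast markers, the cell type of the feeders. The summed FPKM of 16 such markers, among them the collagen genes Col1a1 and Col1a2, was 412 and 277 in wild type and 264 and 839 in Pcgf5-/- cells at day 0. All 16 had a positive fold change at day 0 and 0 of them passed the adjusted threshold. Vim, which fibroblasts express, followed the same order over the 4 samples as the fibroblast sum, and so did Ptn. The part of feeder cells in the day 0 levels of Vim and Ptn was not tested.

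**Figure D2:**
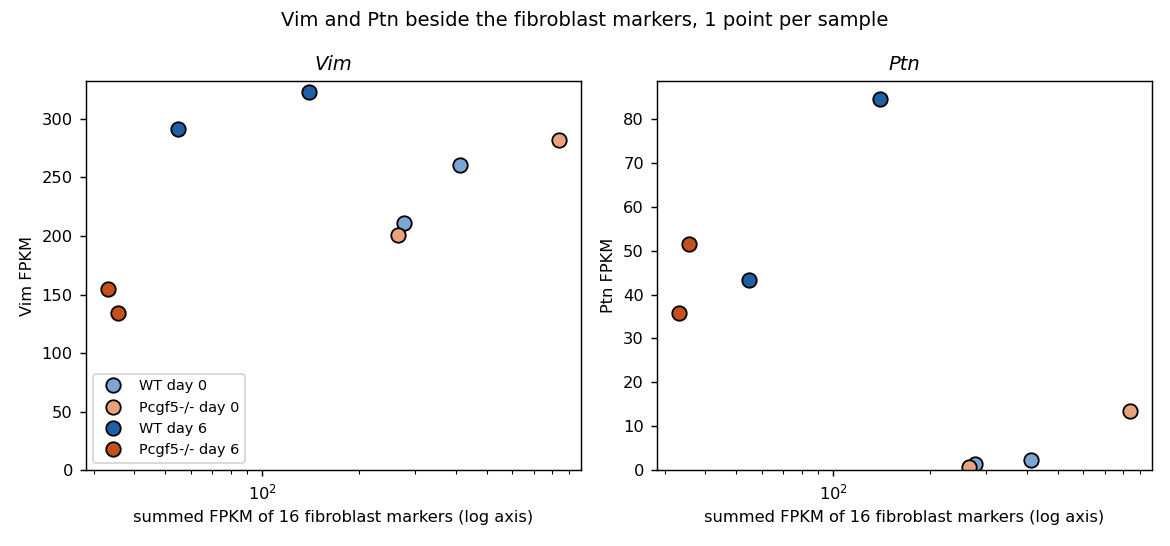
FPKM of Vim (left) and Ptn (right) against the summed FPKM of 16 fibroblast markers (log axis), with 1 point per sample. At day 0 both genes rise with the fibroblast sum from 264 to 839 FPKM; at day 6 the fibroblast sum is at most 140 while Ptn is above every day 0 value and Vim differs between the genotypes.

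After 6 days in N2B27 the wild type cells had turned on most of these genes. Nes, Fabp7, Slc1a3, Prom1, Ptprz1, Ptn and Msi1 rose in wild type, 7 of the 8 members tested, where 34.2% of all genes tested were called higher. Leaving aside the 3 that passed the minimum only through day 6, Nes, Slc1a3, Ptn and Msi1 rose of the remaining 5. Under the deposited scaling the median of all genes tested was itself 0.22 higher (log2) at day 6 in wild type and 0.13 higher in Pcgf5-/- cells. With the medians set equal, the share of called genes that were higher went from 67.8% to 39.7% in wild type and from 67.9% to 48.1% in Pcgf5-/- cells.

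Fabp7 showed the steepest change of the members. From listings at 0, it reached 75.9 and 41.5 FPKM in wild type at day 6, a log2 fold change of 5.84, with a standard error of 0.33 and a limma adjusted p of 1.08e-05. The 2 wild type samples differed widely in level, and both lay far above day 0. Prom1, which marks the apical membrane protrusions of neuroepithelial cells, reached 22.6 and 21.9 FPKM, 46.7 times its mean at day 0. Ptn reached 43.3 and 84.5 FPKM, 33.1 times its day 0 mean. Its receptor gene Ptprz1 reached only 3.98 and 3.58 FPKM, 19.3 times its day 0 mean, so the ligand was present at a far higher level per unit of transcript length than this receptor.

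Msi1 and Nes were already transcribed in mESCs and rose from that base. Msi1 reached 77.7 and 91.9 FPKM in wild type, 10.6 times its day 0 mean (log2 fold change 3.29, standard error 0.22, limma adjusted p = 1.97e-05). Nes reached 58.2 and 62.3 FPKM, 5.20 times its day 0 mean (log2 fold change 2.28, standard error 0.16, limma adjusted p = 2.68e-05). Slc1a3 reached only 2.63 and 3.09 FPKM, a log2 fold change of 0.91 (limma adjusted p = 0.00782) that did not pass the threshold under quantile normalization or median scaling. Vim, the most abundant member, had 292 and 323 FPKM at day 6, with both samples above both at day 0, yet its log2 fold change of 0.39 did not pass the threshold (limma adjusted p = 0.111).

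In wild type at day 6 the members were ordered by mean FPKM as Vim, Msi1, Ptn, Nes, Fabp7, Prom1, Ptprz1, Slc1a3 and Gfap. The samples of Msi1 and Ptn overlapped, as did those of Ptn, Nes and Fabp7, and their order is not resolved beyond that spread. In Pcgf5-/- cells at day 6 the order was Vim, Ptn, Msi1, Nes, Fabp7, Prom1, Slc1a3, Ptprz1 and Gfap, with overlap between Nes and Fabp7.

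At day 6 markers of the cytoskeleton, of lipid binding, of the membrane and of RNA binding were lower in Pcgf5-/- cells than in wild type. Nes, Vim, Fabp7, Prom1, Ptprz1 and Msi1 passed the threshold, 6 of the 8 members tested, where 7.05% of all genes tested were called lower and 9.57% were called higher. Slc1a3 and Ptn did not pass. The median log2 fold change of the 8 was -1.12, beside 0.02 over all genes tested. In the same 6 genes neither Pcgf5-/- sample reached the lower wild type sample, an arrangement that 28.8% of all genes tested showed. Without Pcgf5-/- day 6 replicate 1, only Nes of the 8 remained past the threshold, and the count over all genes went from 2197 to 297. The fold changes of the 6 genes kept their sign in every fit that left out 1 library.

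Among the cytoskeletal genes, Nes had 58.2 and 62.3 FPKM in wild type, against 24.0 and 20.0 FPKM in Pcgf5-/- cells at day 6. Pcgf5-/- cells thus held 36.5% of the wild type mean, and Nes stayed past the threshold in each of the 18 alternative fits (limma adjusted p from 0.00266 to 0.0349). Vim had 292 and 323 FPKM in wild type, against 155 and 134 FPKM in Pcgf5-/- cells, or 47.1% of the wild type mean. Its log2 fold change was -1.08, with a standard error of 0.18 and a limma adjusted p of 0.00995. The lowest wild type value of Vim was well above the highest Pcgf5-/- value. The fibroblast sum at day 6 was 54.6 and 140 FPKM in wild type, against 33.2 and 35.6 FPKM in Pcgf5-/- cells. A single gene, Acta2, held 21.9 and 92.0 FPKM of the wild type sums and 13.9 and 14.9 FPKM of the Pcgf5-/- sums. Of the 16 fibroblast markers 1, S100a4, was lower in Pcgf5-/- cells and 0 were higher, and Vim at day 6 exceeded the whole fibroblast sum in every case. The part of fibroblasts in the Vim difference was not tested.

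Fabp7 had 75.9 and 41.5 FPKM in wild type, against 12.8 and 22.4 FPKM in Pcgf5-/- cells at day 6, 30.0% of the wild type mean. The groups did not overlap, although the 2 wild type samples lay farther apart than the nearest samples of the 2 genotypes. Its log2 fold change of -1.67, with a standard error of 0.33 and a limma adjusted p of 0.0145 was the largest of the members and the one with the widest interval among those called, from -2.42 to -0.92. Msi1 had 77.7 and 91.9 FPKM in wild type, against 30.8 and 29.2 FPKM in Pcgf5-/- cells, 35.4% of the wild type mean (log2 fold change -1.46, standard error 0.22, limma adjusted p = 0.00741). The replicates of Msi1 lay close together and the genotypes far apart. Prom1 had 22.6 and 21.9 FPKM in wild type, against 10.5 and 11.3 FPKM in Pcgf5-/- cells, 48.8% of the wild type mean (log2 fold change -0.97, standard error 0.23, limma adjusted p = 0.0253). It passed the threshold in 11 of its 18 alternative fits.

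Of the ligand and its receptor, the receptor gene was called and the ligand gene was not. Ptprz1 had 3.98 and 3.58 FPKM in wild type, against 1.08 and 1.19 FPKM in Pcgf5-/- cells, 30.0% of the wild type mean, with a log2 fold change of -1.16, with a standard error of 0.19 and a limma adjusted p of 0.00934. With pseudocounts of 0.1 and 0.01 in place of 1, Ptprz1 did not pass (limma adjusted p = 0.0780 and 0.204), nor did Prom1 (limma adjusted p = 0.127 and 0.172), so that 4 of the 8 members were called. Ptn had 43.3 and 84.5 FPKM in wild type, against 35.8 and 51.5 FPKM in Pcgf5-/- cells, so that the genotypes overlapped. Its log2 fold change was -0.48 (limma adjusted p = 0.726), with an interval from -2.36 to 1.39 that includes the fold changes of all the other members. Whether Ptn differed from Ptprz1 in its response was not tested. Both genes lie on chromosome 6, where the median log2 fold change of Pcgf5-/- against wild type was 0.41 (day 0) and 0.37 (day 6). Chromosome 11, which holds Gfap, had medians of 0.48 and 0.38, whereas the other autosomes and the X chromosome had medians from 0.04 to 0.12 at day 0 and from -0.06 to 0.03 at day 6. Relative to the median of chromosome 6, the log2 fold change of Ptprz1 was -0.40 at day 0 and -1.53 at day 6, and that of Ptn was 0.39 and -0.85.

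Slc1a3 and Gfap were the members with a higher mean FPKM in Pcgf5-/- cells at day 6, Slc1a3 without passing the threshold and Gfap untested near 0. Slc1a3 had 2.63 and 3.09 FPKM in wild type, against 3.78 and 4.88 FPKM in Pcgf5-/- cells at day 6, a ratio of 1.52. Both Pcgf5-/- samples lay above both wild type samples, as they did for 33.4% of all genes tested, and the log2 fold change of 0.46 did not pass the threshold (standard error 0.21, limma adjusted p = 0.173). Gfap was listed at 0.0205 and 0.0917 FPKM in wild type and at 0.132 and 0.186 FPKM in Pcgf5-/- cells at day 6, values too low to be tested. The highest Gfap value of the series, 0.321 FPKM, came from Pcgf5-/- day 0 replicate 2. Gfap transcripts were thus near the lower limit in every condition, and no direction can be read from them.

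**Figure D3:**
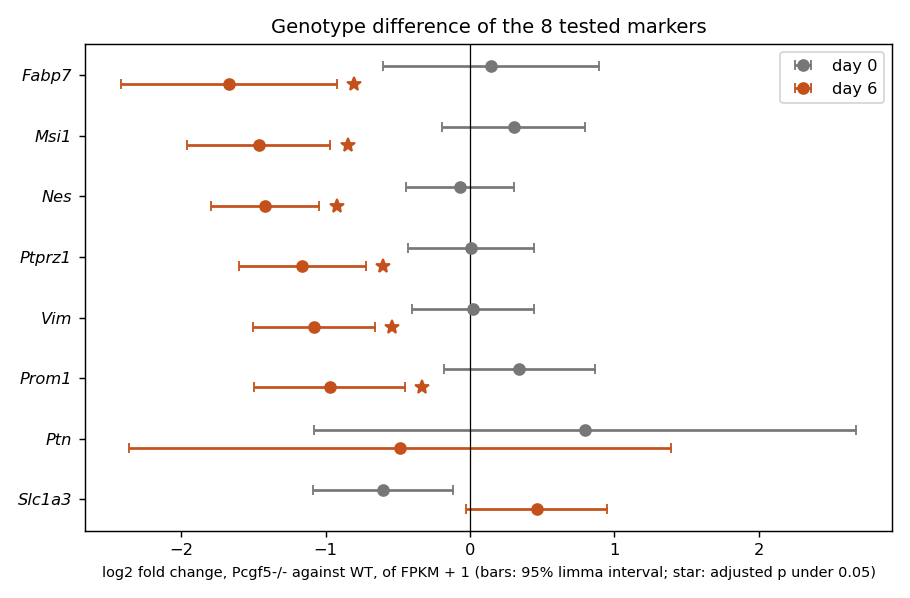
Log2 fold change of FPKM + 1 between Pcgf5-/- and wild type (horizontal axis) for the 8 tested markers at day 0 (grey) and day 6 (orange); bars are 95% limma intervals and stars mark an adjusted p under 0.05. At day 6 the 6 starred genes lie between -1.67 and -0.97, whereas no marker is starred at day 0.

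Pcgf5-/- cells still raised most of these genes over the 6 days. Nes, Fabp7, Prom1, Ptprz1 and Msi1 reached a lower level than in wild type, while Ptn overlapped and Slc1a3 had a higher mean. The same 7 genes that rose in wild type, Nes, Fabp7, Slc1a3, Prom1, Ptprz1, Ptn and Msi1, were called higher at day 6 in Pcgf5-/- cells, where 21.9% of all genes tested were called higher. Vim fell, where 10.4% of all genes tested were called lower. Msi1 rose 3.07-fold in Pcgf5-/- cells against 10.6-fold in wild type. Nes rose 1.98-fold against 5.20-fold. Prom1 rose 12.2-fold against 46.7-fold, and Ptprz1 rose 5.33-fold against 19.3-fold. Slc1a3 went the other way, with 12.2-fold in Pcgf5-/- cells against 2.70-fold in wild type. These 2 ratios rest on low day 0 means, 0.354 FPKM in Pcgf5-/- cells and 1.06 FPKM in wild type. On the tested log2 scale the rises of Slc1a3 were 1.98 and 0.91, and their difference did not pass the threshold (limma adjusted p = 0.0892). The ratios of Prom1 and Ptprz1 also rest on day 0 means under 1 FPKM. Without Pcgf5-/- day 6 replicate 2, 5 of the 8 were called over time in Pcgf5-/- cells instead of 8.

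Vim was the member whose samples moved in opposite directions. In wild type both day 6 samples exceeded both day 0 samples, and in Pcgf5-/- cells both day 6 samples, 155 and 134 FPKM, lay below the day 0 values of 201 and 282 FPKM. The wild type rise did not pass the threshold (log2 fold change 0.39, limma adjusted p = 0.111). It was as low as 0.023 among the alternative fits that left out no library. How many of all genes moved in opposite directions was not counted. The decrease in Pcgf5-/- cells had a log2 fold change of -0.72, with a standard error of 0.18 and a limma adjusted p of 0.0200. Over the same interval the fibroblast sum went from 264 and 839 FPKM to 33.2 and 35.6 FPKM in Pcgf5-/- cells and from 412 and 277 FPKM to 54.6 and 140 FPKM in wild type, and its part in the change of Vim with time was not tested.

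Whether the genotype effect changed between the days was tested directly. It passed the threshold for Nes (log2 difference -1.35, standard error 0.23, limma adjusted p = 0.0315) and Msi1 (-1.77, standard error 0.31, limma adjusted p = 0.0315), 2 of the 8 members, where 3.09% of all genes tested were called. For Fabp7, Ptprz1, Prom1 and Vim the differences were -1.82, -1.17, -1.32 and -1.10, with limma adjusted p-values of 0.0702, 0.0573, 0.0654 and 0.0603. Slc1a3 had the opposite sign, 1.06 (limma adjusted p = 0.0892), and Ptn was undetermined at -1.28 (limma adjusted p = 0.540). With pseudocounts of 0.1 and 0.01 the Fabp7 difference was -2.76 and -5.26 and passed (limma adjusted p = 0.0496 and 0.0288), values that rest on day 0 listings at or near 0. These calls were fragile, since between 0 and 2 of the 8 members passed when 1 library was left out. The count was 0 without Pcgf5-/- day 0 replicate 2, either Pcgf5-/- day 6 replicate, wild type day 0 replicate 2 or wild type day 6 replicate 2, and 1 without either of the other wild type libraries, although 7 of the 8 had an unadjusted p under 0.05 in each of those fits.

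**Figure D4:**
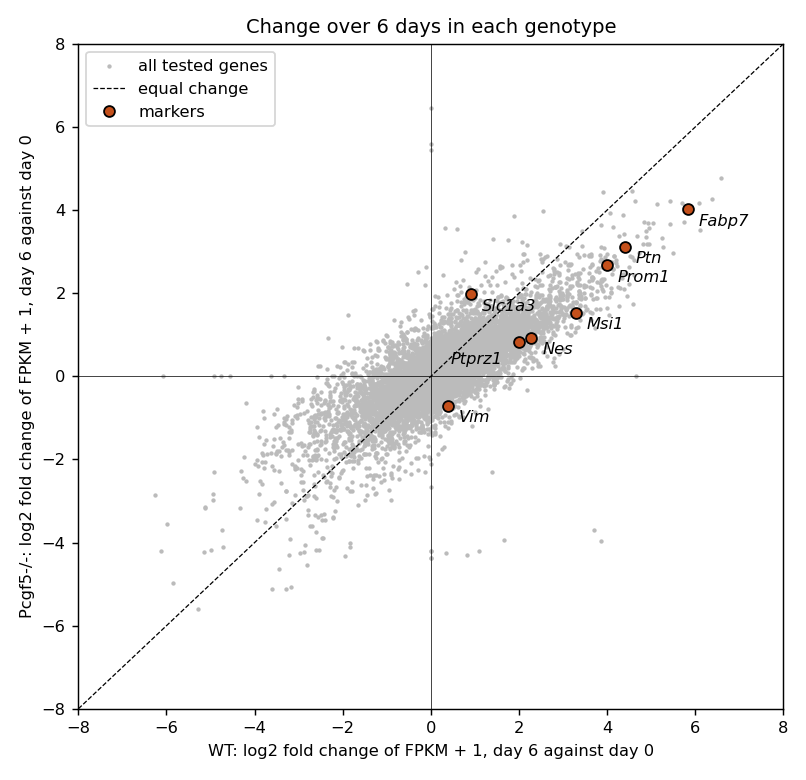
Log2 fold change of FPKM + 1 from day 0 to day 6 in wild type (horizontal axis) and in Pcgf5-/- cells (vertical axis) for all 13214 tested genes (grey) and the 8 tested markers (orange); the dashed line marks equal change. Of the 8 markers 7 lie below the dashed line and Slc1a3 above it; Vim is the marker with a positive value in wild type and a negative value in Pcgf5-/- cells.

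Further genes of the same programme were taken from lists assembled with earlier results of these data known, and they are given as descriptions. Transcription factors of neural progenitors were lower in Pcgf5-/- cells at day 6 in 10 of 14 tested, and 0 were higher. Over all genes tested 7.05% were called lower and 9.57% higher. Pou3f2, a POU factor of neural precursors, had 29.1 and 21.9 FPKM in wild type, against 5.65 and 4.87 FPKM in Pcgf5-/- cells (log2 fold change -2.07). Dach1 (-1.90), Rfx4 (-1.87) and the Notch effector Hes5 (-1.64) followed. Among 16 other radial glia and progenitor genes tested 5 were lower, and the endothelin receptor gene Ednrb had the largest change, with 48.5 and 58.0 FPKM in wild type, against 8.75 and 8.71 FPKM in Pcgf5-/- cells. The proteoglycan gene Cspg5 (-1.39) and the cell adhesion gene Cdh2 (-1.32) were lower as well. Cspg5, and Zic1 among the lower factors, passed the FPKM minimum only through wild type day 6. Their lower values in Pcgf5-/- cells are thus partly built into the filter. The list medians were -1.19 for the factors and -0.56 for the other genes, beside -1.12 for the 8 tested markers. Without Pcgf5-/- day 6 replicate 1, a fit of the lists chosen after seeing the data, the counts became 5 and 2.

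Relatives of the members did not all move with them. Of 12 genes tested in pleiotrophin and midkine signalling 2 were lower and 2 were higher, beside 7.05% called lower and 9.57% called higher over all genes tested. Mdk, which encodes midkine, the other ligand of this family, had 485 and 722 FPKM in wild type, against 440 and 624 FPKM in Pcgf5-/- cells (log2 fold change -0.17, limma adjusted p = 0.693) and thus overlapped like Ptn. Ptprs, another receptor-type phosphatase that binds proteoglycans, was lower (log2 fold change -0.81, limma adjusted p = 0.0336), as was the syndecan gene Sdc1 (-0.86), whereas Itgb3 (1.05) and Ncl (0.43) were higher. The median log2 fold change of chromosome 11, which holds Itgb3, was 0.38 at day 6. Sdc3 had a log2 fold change of -1.02 without passing the threshold (limma adjusted p = 0.0992). The receptor gene Alk and Cntn1, which encodes a binding partner of the Ptprz1 protein, stayed under 1 FPKM in every sample. In limma fits without Pcgf5-/- day 6 replicate 1 or wild type day 6 replicate 2, 0 of the 12 genes passed and 4 had an unadjusted p under 0.05, and without Pcgf5-/- day 6 replicate 2 only 1 passed.

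Among 14 intermediate filament genes tested, Nefm was lower (log2 fold change -2.43) and Nefh and Des (0.87) were higher. These counts stand beside 7.05% called lower and 9.57% called higher over all genes tested. Nefh had 8.15 and 3.60 FPKM in wild type, against 32.4 and 22.2 FPKM in Pcgf5-/- cells. It lies on chromosome 11, where the median log2 fold change was 0.38 at day 6. Ina, a neurofilament subunit of early neurons, had 49.2 and 35.0 FPKM in wild type, against 52.2 and 36.5 FPKM in Pcgf5-/- cells and overlapped. Synm, whose product copolymerises with vimentin, had a log2 fold change of -0.25, and the epithelial keratin genes Krt8 and Krt18 had -1.63 and -1.19 without passing the threshold. When any 1 of the 4 day 6 libraries was left out, limma called 0 of these 14 genes, and 3 to 6 had an unadjusted p under 0.05. Among the close relatives of Fabp7, Slc1a3, Prom1 and Msi1, 9 were tested, with the same shares over all genes beside them. Fabp5 was lower, with 70.9 and 67.7 FPKM in wild type, against 26.4 and 45.4 FPKM in Pcgf5-/- cells, and the neutral amino acid transporter gene Slc1a4 was higher (log2 fold change 0.66). Slc1a4 also lies on chromosome 11 and had a log2 fold change of 0.57 at day 0 (limma adjusted p = 0.168). Fabp3 (1.02), Slc1a1 (0.45), Slc1a2 (-0.71) and Slc1a5 (0.73) did not pass. Msi2, the paralogue of Msi1, had 45.0 and 46.0 FPKM in wild type, against 47.7 and 40.2 FPKM in Pcgf5-/- cells, and was not called (log2 fold change -0.05). It lies on chromosome 11 too, so its value was below that chromosome's median of 0.38. Whether Msi1 and Msi2 differed in response was not tested. Prom2 was near 0 throughout. Without Pcgf5-/- day 6 replicate 1 or wild type day 6 replicate 2, limma called 0 of the 9 relatives, with 3 and 4 at an unadjusted p under 0.05, and 1 was called without either of the others.

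Markers of other cell types were read beside the members at day 6, where 7.05% of all genes tested were called lower and 9.57% higher. Of 16 neuron markers 6 were lower in Pcgf5-/- cells and 0 higher, led by Nefm, Elavl3 (-1.55), Elavl4 (-1.18) and Tubb3 (-0.96). Neurog2, also among the 6, passed the FPKM minimum only through wild type day 6, so its call is partly built into the filter. Of 13 pluripotency markers 12 were higher and 0 lower, led by Tdgf1 (2.44), Esrrb (2.40), Nr0b1 (2.18) and Nanog (2.16). These genes moved at day 6 together with the 6 lower members, and the part of cells that remained in the mESC state in the members' values was not tested. Astrocyte markers were tested for 8 of 12 genes, with Aldh1l1 higher (1.15) and 0 lower, and Aqp4, S100b and Gjb6 stayed under 1 FPKM in every sample like Gfap. Nanog and Aldh1l1 lie on chromosome 6, where the median log2 fold change was 0.37 at day 6. None of 8 tested mesendoderm and endoderm markers passed the threshold at day 6, and of 7 tested neural crest markers Erbb3 was higher and Pax3 lower. Without Pcgf5-/- day 6 replicate 1, 3 of the 13 pluripotency markers were called higher, where 12 had an unadjusted p under 0.05. Without that library, Pcgf5-/- day 6 replicate 2 or wild type day 6 replicate 1, 2 of the 16 neuron markers were called lower. The call of Erbb3 was lost in limma fits without any 1 of the 4 day 6 libraries. That of Aldh1l1 was lost without either Pcgf5-/- day 6 library, without wild type day 6 replicate 2 and without either wild type day 0 library.

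**Figure D5:**
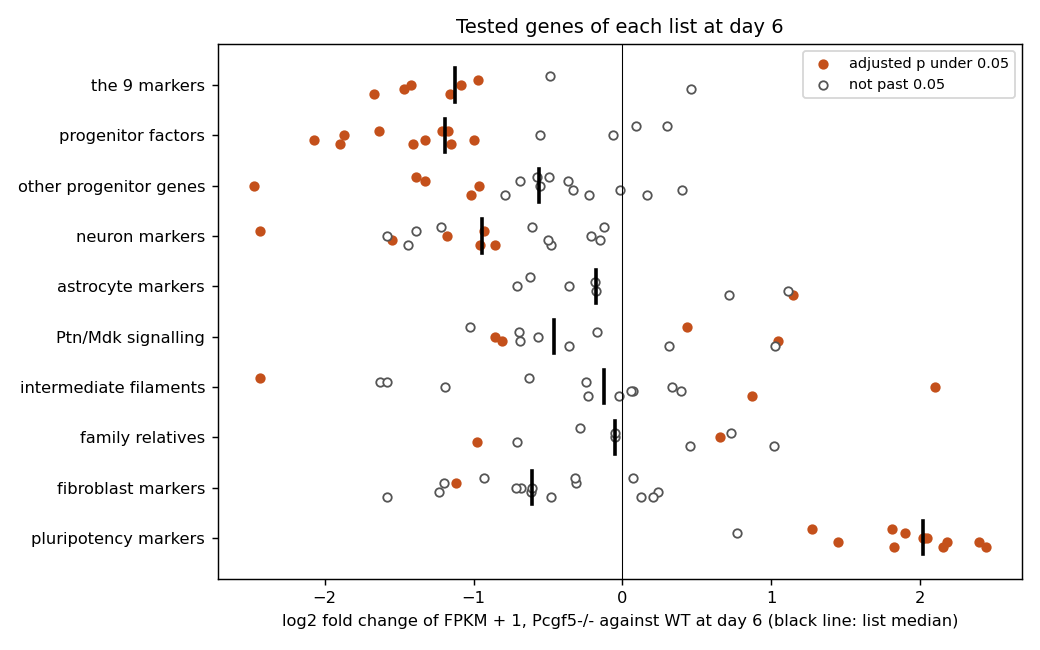
Log2 fold change of FPKM + 1 between Pcgf5-/- and wild type at day 6 (horizontal axis) for the tested genes of each list; filled points passed an adjusted p of 0.05, open points did not, and black lines are list medians. The markers (median -1.12) and the progenitor factors (-1.19) lie to the left, the pluripotency markers (2.02) to the right.

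Over the 8 samples, the pattern of each member was compared with every tested gene by Pearson's r of log2(FPKM + 1), as a description in which the day of culture dominates and all points share the same libraries. Among the genes most like Nes were AW011738 and Osbpl6 (r = 0.996 and 0.995), and Ptprz1 was at rank 8 (r = 0.993). Fabp7 was closest to Aldh1a7, Sst and Dbx1, and among the members to Prom1 (r = 0.989). Prom1 was closest to Ppp4r1l-ps, Trib2 and Fam98b, Ptprz1 to Pogk, Insr and Socs5, and Msi1 to Stxbp5, Irx5 and Dpysl5. Slc1a3 was closest to Hfm1, Ephb4 and Gstt1, and Ptn to Anapc16, Zfp653 and Nenf. Vim was the least like the rest, with r = 0.353 to Nes and -0.390 to Slc1a3, and its nearest genes were Jag1, Mcc and Lamb2.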

How the data were processed

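PolyA RNA was sequenced from 8 samples in 4 conditions. The authors trimmed adapters and bases of low quality, discarded short, duplicate and N-rich reads, and mapped the remaining pairs to mm9, with TopHat2 2.0.4 and Cufflinks 2.1.1 named in the submitters' processing notes. The deposited values are FPKM per gene, scaled to library size and gene length. Discarding duplicates can depress highly abundant transcripts.

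One limma 3.58.1 fit (R 4.3.3) of log2(FPKM + 1) used all 8 samples, a mean per condition, a variance trend and no replicate block, on the 13214 genes whose mean FPKM exceeded 1 in a condition, with Benjamini-Hochberg adjustment and a threshold of 0.05. The fit was tested on simulated data. The members and gene lists were chosen with earlier results of these data known, so no list was tested. From each list at most 4 genes with the largest change at day 6 among those called were named, plus direct relatives of members and the 3 genes most alike in pattern; some genes that met this rule are not reported here. Alternatives were pseudocounts of 0.1 and 0.01, other FPKM minimums, quantile and median scaling, replicate blocks, no trend, fits of the compared conditions and leaving out each sample. The intervals around each FPKM in the files were not used, because 9.56% to 11.6% of genes over 1 FPKM lay outside their own interval. Tables were handled with Python 3.11.15 and pandas 2.3.3.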

Additional observations from a re-analysis of the deposited data

Results flagged for a closer look

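The genotype effect differed between the days for Nes and Msi1 by the interaction test, with log2 differences of -1.35 and -1.77 (limma adjusted p = 0.0315 for both). Vim moved up in both wild type samples and down in both Pcgf5-/- samples between the days, with an interaction of -1.10 (limma adjusted p = 0.0603). Its rise in wild type did not pass the threshold (limma adjusted p = 0.111) and was as low as 0.023 (log2) among the fits that left out no library. Slc1a3 was lower in both Pcgf5-/- samples at day 0 and higher in both at day 6, with an interaction of 1.06 (limma adjusted p = 0.0892). Its day 6 arrangement was shared by 33.4% of all genes tested, and the share for day 0 was not counted. Neither genotype difference of Slc1a3 passed the threshold (limma adjusted p = 0.195 at day 0 and 0.173 at day 6). Fabp7 was listed at 0 in wild type and at about 0.1 FPKM in Pcgf5-/- cells at day 0, and was lower in Pcgf5-/- cells at day 6, with an interaction of -1.82 (limma adjusted p = 0.0702). For Vim, Slc1a3 and Fabp7 the difference did not pass the threshold in the fit of all 8 samples with a pseudocount of 1 and no replicate block. That of Slc1a3 passed in 1 alternative fit of all 8 samples (limma adjusted p = 0.0421). The Fabp7 difference passed with pseudocounts of 0.1 (-2.76, limma adjusted p = 0.0496) and 0.01 (-5.26, limma adjusted p = 0.0288). With 2 samples per condition no search for outlying samples within a condition was possible.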

How the results depend on the processing

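At day 6 the 6 lower members kept their sign in every alternative fit, and between 1 and 6 of the 8 tested passed when 1 library was left out. Over time in Pcgf5-/- cells that count lay between 5 and 8, and for the difference between the days between 0 and 2. With a pseudocount of 0.01, 1 member passed at day 0. The difference between the days passed for 0 members with no FPKM minimum, where 7 had an unadjusted p under 0.05. Replicate numbers correlated across genes between the genotypes at 0.10 at day 0 and 0.39 at day 6, and between the days from -0.08 to -0.02. With 2 pairs a day they were not taken as pairing. A replicate block for each day gave 5 members for the difference between the days, and 1 block for both days changed no call of a member count. This block for each day could not be fitted to the day effects, and an FPKM minimum of 5 left Slc1a3 and Ptprz1 untested.

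Called genes at day 0 numbered 44, and 6 with no FPKM minimum, 102 with a minimum of 5, 3 under quantile normalization, 2 under median scaling, 1 with the replicate block, 282 with the block for each day, 2 without the trend and 0 in a fit of the compared conditions, where 2019 had an unadjusted p under 0.05. For the difference between the days 408 genes were called, and 251 and 191 with pseudocounts of 0.1 and 0.01, 86 with no FPKM minimum and 1167 with the block for each day. Leaving out 1 library gave 1 to 22 genes at day 0, 297 to 1977 at day 6, 2367 to 4147 over time in Pcgf5-/- cells and 4 to 347 for the difference between the days. The share of called genes that were higher went from 43.4% to 70.0% for that difference under median scaling, and to 57.7% under quantile normalization.

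Sign changes occurred among values that had not passed the threshold. At day 0 Ptprz1 became -0.16 and -0.48 with pseudocounts of 0.1 and 0.01, -0.11 under quantile normalization and -0.14 under median scaling, Vim became -0.022 and -0.13 under those scalings, and Fabp7 -0.00031 under median scaling. With 1 library left out, day 0 values ranged from -0.25 to 0.11 for Nes, from -0.22 to 0.26 for Vim, from -0.19 to 0.21 for Ptprz1, from -0.73 to 2.33 for Ptn and from -0.040 to 0.65 for Msi1, and the difference between the days ranged from -2.81 to 0.25 for Ptn. Apart from the fits that leave out a library or test other genes, the cause of these shifts was not tested.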
